A study of Mus musculus with 9 samples.

Results

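The miR-148 and miR-152 family in mouse is made up of mmu-miR-148a-3p, mmu-miR-148b-3p and mmu-miR-152-3p, 3 mature microRNAs (miRNAs) that share a seed and are written below without the species prefix. They were taken by name from the annotation of an Agilent mouse miRNA array that carried 1881 mouse miRNAs. Their levels were measured in the liver of male C57BL/6J mice, an inbred strain, in 3 groups. The metformin group was fed a diet that drew 45% of its calories from fat for 17 weeks from 3 weeks of age and received metformin, a glucose-lowering drug, by stomach tube at 3 mg per kg per day over the last 5 weeks. The high fat diet group ate the same diet for the same time and received saline over those 5 weeks, and the control group ate chow for 17 weeks. The sources used here do not give whether controls received saline too. Livers were collected at 20 weeks of age. Each group had 3 arrays, and each array measured RNA pooled from 4 mice, so the errors below are spreads between pools and not between single mice.

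A miRNA guides the silencing complex to messenger RNAs that pair with its seed, bases 2 to 8 from its 5′ end, and lowers their translation and stability. miR-148a-3p is one of the more abundant miRNAs of hepatocytes, where it is known to repress the LDL receptor, which takes up cholesterol-rich lipoprotein from blood, and the cholesterol exporter ABCA1. Members of the family are also known for repressing DNA methyltransferase 1, the enzyme that maintains DNA methylation.

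The mature sequences are shown because the seed is what makes the 3 miRNAs a family and because the members differ by only a few bases outside it. They are RefSeq sequences placed on GRCm38.p6, 5′ to 3′, with the seed in capitals.
miR-148a-3p: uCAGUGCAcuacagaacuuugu
miR-148b-3p: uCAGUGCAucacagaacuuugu
miR-152-3p: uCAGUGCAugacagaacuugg
miR-130a-3p: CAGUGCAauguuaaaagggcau

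The first 3 lines hold the seed CAGUGCA at bases 2 to 8, and no other of the 1679 mature mouse miRNA names in the RefSeq table did. Counted from the 5′ end, miR-148a-3p and miR-148b-3p differed at C9U and U10C and were identical at 20 of 22 positions. miR-148a-3p and miR-152-3p differed at C9U, U10G and U20G, and miR-148a-3p was 1 base longer. miR-148b-3p and miR-152-3p differed at C10G and U20G, and miR-148b-3p was 1 base longer. The 4th sequence, which is not a member, carries the same letters at its bases 1 to 7, shifted by 1 position. It is shown as the contrast to the family seed, and 7 mature miRNAs, the miR-130 and miR-301a group among them, had this shifted form.

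The members come from separate genes. Mir148a lies on chromosome 6, with the mature bases at 51269829 to 51269850 on the minus strand, inside the span of the predicted gene Gm38821. Mir148b lies on chromosome 15, with the mature bases at 103285185 to 103285206 on the plus strand, inside Copz1. Mir152 lies on chromosome 11, with the mature bases at 96850439 to 96850459 on the plus strand, inside Copz2. Copz1 and Copz2 encode related zeta subunits of the coatomer coat of transport vesicles. Whether these positions are exonic or intronic, and whether the surrounding genes lie on the same strand, was not examined here.

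On 6 of the 9 arrays, some spots of bright probes in columns at the left or right edge carried little or no signal. Whole columns were left out where at least 10% of the bright spots were empty, so that spots with signal were left out too. For example, the left-out spots of the brighter miR-148a-3p probe had a median intensity of 147 on control 3, beside 260 for the kept spots. These strips took 0%, 31.1% and 0% of the miRNA spots on the metformin arrays. They took 53.6%, 0% and 33.6% in the high fat diet group, and 43.8%, 43.5% and 41.1% in the control group. The strips thus differed between the groups and were present for 1 of 3 metformin pools, 2 of 3 high fat diet pools and 3 of 3 control pools. Levels were therefore read from the spots outside the strips, as the median spot intensity after background subtraction. Each was divided by the 75th percentile of the array, taken over the 187 probes detected on all 9 arrays and lying at an intensity of 193 to 323, and put on the log2 scale, where 0 is a probe as bright as that percentile. A probe was detected where over 50% of its spots lay well above background. The average local background lay at an intensity of 15.6 to 20.2, and 0 spots were saturated.

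**Figure D1:**
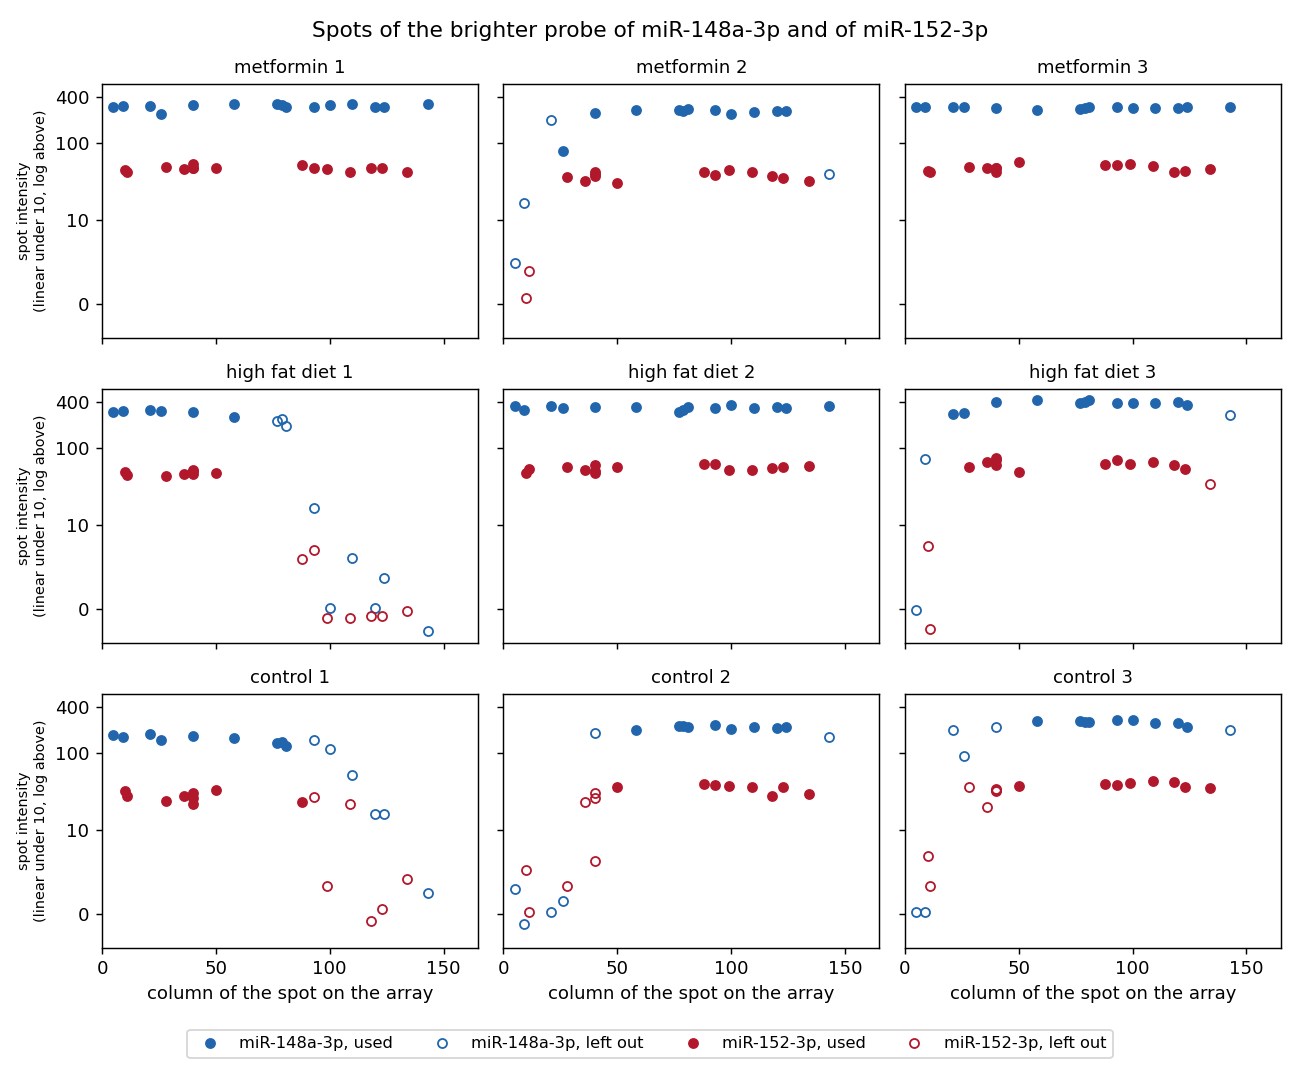
Intensity of each spot (vertical axis, linear under 10 and logarithmic above) against the column of the spot on the array (horizontal axis) for the brighter probe of miR-148a-3p and of miR-152-3p. One panel is drawn per array, with metformin above high fat diet above control. Spots inside the edge strips are drawn apart from those kept. Metformin 1, metformin 3 and high fat diet 2 have no strip.

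The 3 members lay at very different signal. miR-148a-3p was read by a probe that lay far above background on every array, miR-152-3p by a dimmer probe that was also detected on all 9 arrays, and miR-148b-3p by a probe that was detected on 0 of 9 arrays. Brightness differs between probes for reasons other than abundance, so these signals do not rank the miRNAs by amount. Of the 3 members, 2 entered the test, together with 141 other miRNAs that were detected on every array in 1 group or more.

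**Figure D2:**
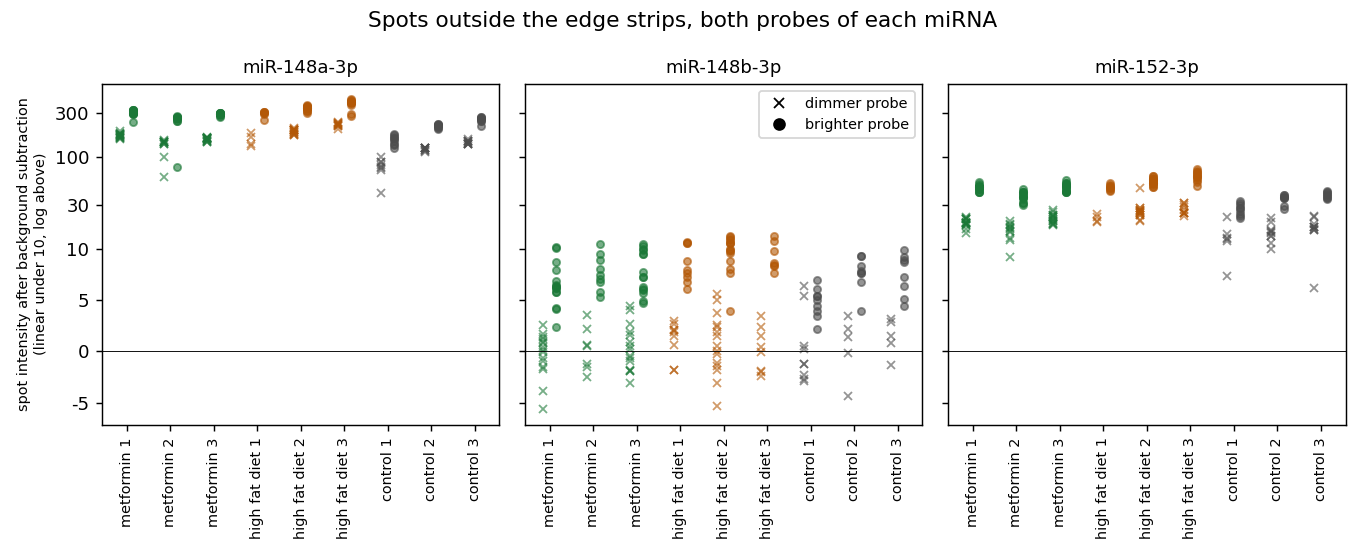
Intensity of every kept spot (vertical axis, linear under 10 and logarithmic above) of both probes of each member, by array (horizontal axis, metformin, then high fat diet, then control). Spots of miR-148a-3p lie highest, those of miR-152-3p between, and those of miR-148b-3p near 0 on all 9 arrays.

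For miR-148a-3p, the kept spots of the brighter probe had a median intensity of 309, 266 and 295 in the metformin group, 304, 343 and 395 in the high fat diet group, and 159, 223 and 260 in the control group. The control values were the 3 lowest of the 9. Between 6 and 15 spots stood behind each value, and all of them lay well above background. High fat diet 1, the array with the widest strips, had the fewest kept spots.

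After scaling, the log2 level of miR-148a-3p was 0.30, 0.20 and 0.32 in the metformin group, 0.46, 0.30 and 0.29 in the high fat diet group, and -0.28, 0.01 and 0.21 in the control group. Each high fat diet pool lay above each control pool, the metformin arrays fell among or just below the high fat diet arrays, and control 1 was the lowest. As a percentage of the array's 75th percentile, miR-148a-3p averaged 121 ± 5.18% with metformin, 128 ± 8.63% on high fat diet and 99.6 ± 16.6% in controls (SD, n = 3 pools each). The control pools thus spread more widely than those of either other group.

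For miR-152-3p, the kept spots of the brighter probe had a median intensity of 47.6, 37.3 and 47.6 in the metformin group, 46.5, 54.9 and 62.7 in the high fat diet group, and 27.7, 36.3 and 38.8 in the control group. Control 1 was again the lowest array and high fat diet 3 the highest, and metformin 2 lay inside the control range before scaling. On the log2 scale, the level of miR-152-3p was -2.40, -2.63 and -2.31 with metformin, -2.25, -2.35 and -2.37 on high fat diet, and -2.80, -2.61 and -2.54 in controls. Each high fat diet pool again lay above each control pool, and metformin 2 lay below 2 of the 3 control arrays. miR-152-3p averaged 18.4 ± 2.04% of the 75th percentile with metformin, 20.0 ± 0.870% on high fat diet and 16.0 ± 1.49% in controls (SD, n = 3 pools each).

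**Figure D3:**
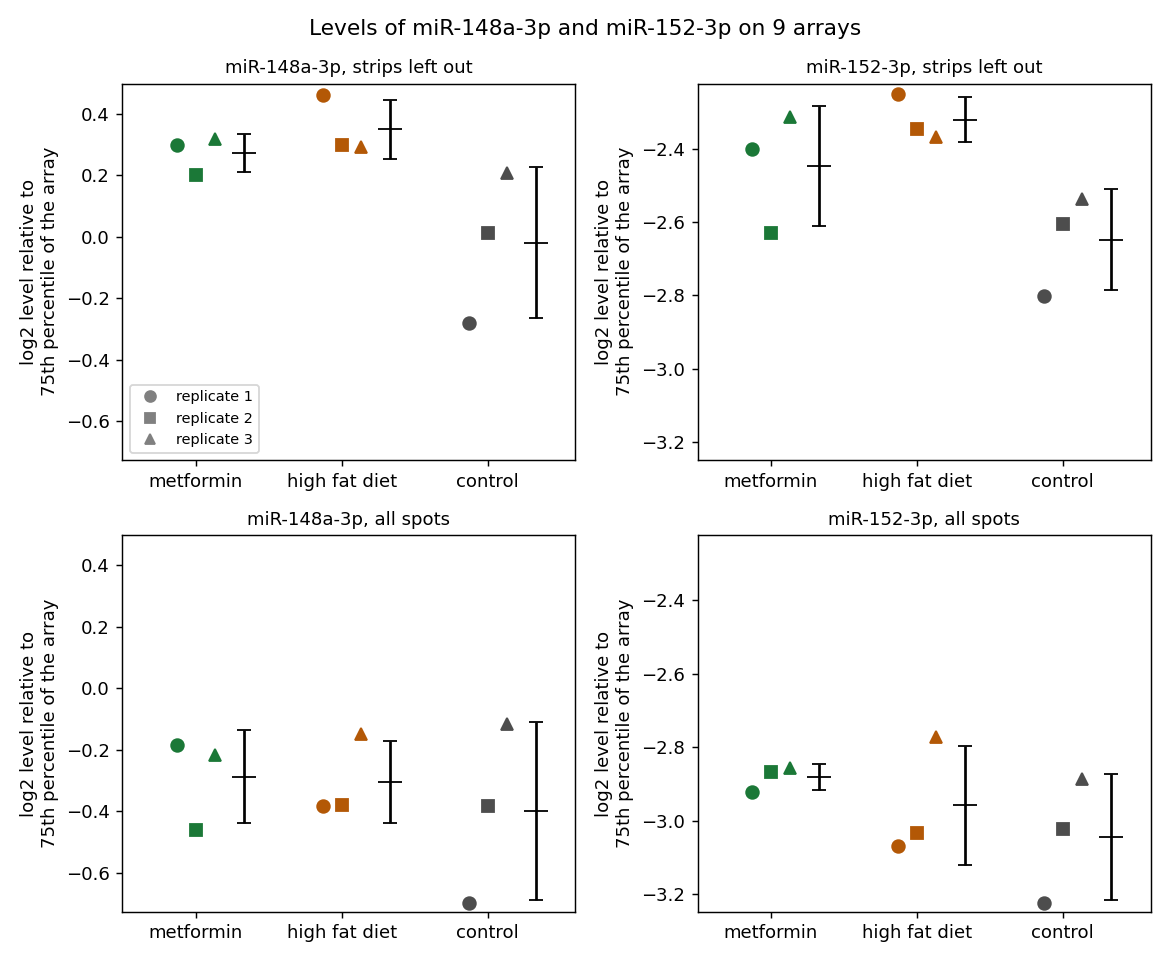
The log2 level relative to the 75th percentile of the array (vertical axis) of miR-148a-3p and miR-152-3p in the metformin, high fat diet and control groups. Points are arrays, and bars are group means with SD over 3 pools. One pair of panels leaves the edge strips out and the other uses all spots. With the strips left out, the high fat diet points lie above the control points for both miRNAs, and with all spots the groups overlap.

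The first comparison asked what the high fat diet did to these miRNAs relative to chow. Both detected members were higher on high fat diet by about the same amount, and neither passed the threshold of 0.05 on the adjusted p. miR-148a-3p averaged 0.35 ± 0.10 on high fat diet and -0.02 ± 0.25 in controls on the log2 scale (SD, n = 3 each). The difference was 0.37 (SE 0.12, 95% interval 0.10 to 0.64, a fold of 1.29), with an adjusted p of 0.0624 in limma's moderated test. miR-152-3p averaged -2.32 ± 0.06 on high fat diet and -2.65 ± 0.14 in controls. Its difference was 0.33 (SE 0.11, 95% interval 0.09 to 0.57, a fold of 1.25), again with an adjusted p of 0.0624 in limma. By size of the difference, miR-148a-3p ranked 11 and miR-152-3p ranked 15 of the 143 miRNAs tested, whose median difference was 0.03.

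In this comparison 0 of the 2 tested members were called, where 20 of 143 miRNAs, or 14.0%, were called in all. Of these, 6 were higher (4.20%) and 14 lower (9.79%). The unadjusted p of both members, 0.0122 and 0.0126, lay under 0.05, as did that of 51 of the 143 miRNAs, or 35.7%. For both members the high fat diet and control arrays did not overlap, and that held for 53 of 143 miRNAs, or 37.1%. An exact permutation test of 3 pools against 3 cannot give a p below 0.1.

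The difference between high fat diet and control depended on how the spots were read. With all spots and no strip left out, miR-148a-3p averaged -0.30 ± 0.13 on high fat diet and -0.40 ± 0.29 in controls, a difference of 0.09 (SE 0.18, adjusted p in limma 0.765). miR-152-3p averaged -2.96 ± 0.16 on high fat diet and -3.04 ± 0.17 in controls, also a difference of 0.09 (SE 0.16, adjusted p in limma 0.765). In that reading the groups overlapped for both members, while 23.0% of the 139 miRNAs tested did not. The median difference of all 139 was -0.22, with 6.47% called and 0.719% called higher. With normexp background correction, which added an offset of 50 to every spot, the difference of miR-152-3p was -0.01 (adjusted p in limma 0.959). Beside that offset, the kept spots of its brighter probe had medians of 27.7 to 62.7. The part of the offset in this value was not tested. The array used for control 3 was alone on its slide, and without it the differences were 0.48 for miR-148a-3p (adjusted p in limma 0.0214) and 0.38 for miR-152-3p (adjusted p in limma 0.0476). The other 8 arrays shared a slide, with high fat diet in row 1 and controls in row 2, so for this comparison no value within a row could be had. Less the median of all miRNAs tested, the differences of miR-148a-3p and miR-152-3p were 0.34 and 0.30 with the strips left out. By the same measure they were 0.31 and 0.30 with all spots, and 0.43 and 0.12 with normexp.

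The second comparison asked what metformin did to mice on the high fat diet. Neither member passed the test, and the 95% interval of each difference spanned both a fall and a rise. miR-148a-3p averaged 0.27 ± 0.06 with metformin and 0.35 ± 0.10 on high fat diet alone (SD, n = 3 each), a difference of -0.08 with a 95% interval of -0.35 to 0.19 and an adjusted p of 0.810 in limma. miR-152-3p averaged -2.45 ± 0.16 with metformin and -2.32 ± 0.06 on high fat diet alone, a difference of -0.13 with a 95% interval of -0.37 to 0.11 and an adjusted p of 0.661 in limma. These intervals still allow a fall of 0.35 for miR-148a-3p and of 0.37 for miR-152-3p on the log2 scale, beside diet differences of 0.37 and 0.33.

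Both members' arrays overlapped between metformin and high fat diet, where 29 of 143 miRNAs, or 20.3%, did not overlap. Of the members 0 were called, against 2 of 143 miRNAs, or 1.40%, in all, and the median difference was -0.06. Within row 1 of the slide, metformin 1 set against the 3 high fat diet arrays gave -0.05 for miR-148a-3p and -0.08 for miR-152-3p. With all spots the 2 differences turned to 0.02 and 0.08, against a median of 0.16 over all miRNAs tested.

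The third comparison set metformin with high fat diet against chow. miR-148a-3p averaged 0.27 ± 0.06 with metformin and -0.02 ± 0.25 in controls, a difference of 0.29 (SE 0.12, 95% interval 0.02 to 0.56, a fold of 1.22). Its adjusted p was 0.189 in limma, and it ranked 4 by size of the difference among 143 miRNAs with a median of -0.00. miR-152-3p averaged -2.45 ± 0.16 with metformin and -2.65 ± 0.14 in controls, a difference of 0.20 (SE 0.11, 95% interval -0.04 to 0.44, adjusted p in limma 0.277).

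Of the members 0 were called against control, beside 1.40% of all miRNAs called in either direction and 0.699% called higher, and both overlapped between metformin and control, where 25.9% of miRNAs did not. Within row 2 of the slide, 2 metformin arrays against 2 control arrays gave 0.39 for miR-148a-3p and 0.23 for miR-152-3p. This comparison shares its metformin arrays with the second comparison and its control arrays with the first, so the 3 differences of a member are not independent.

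**Figure D4:**
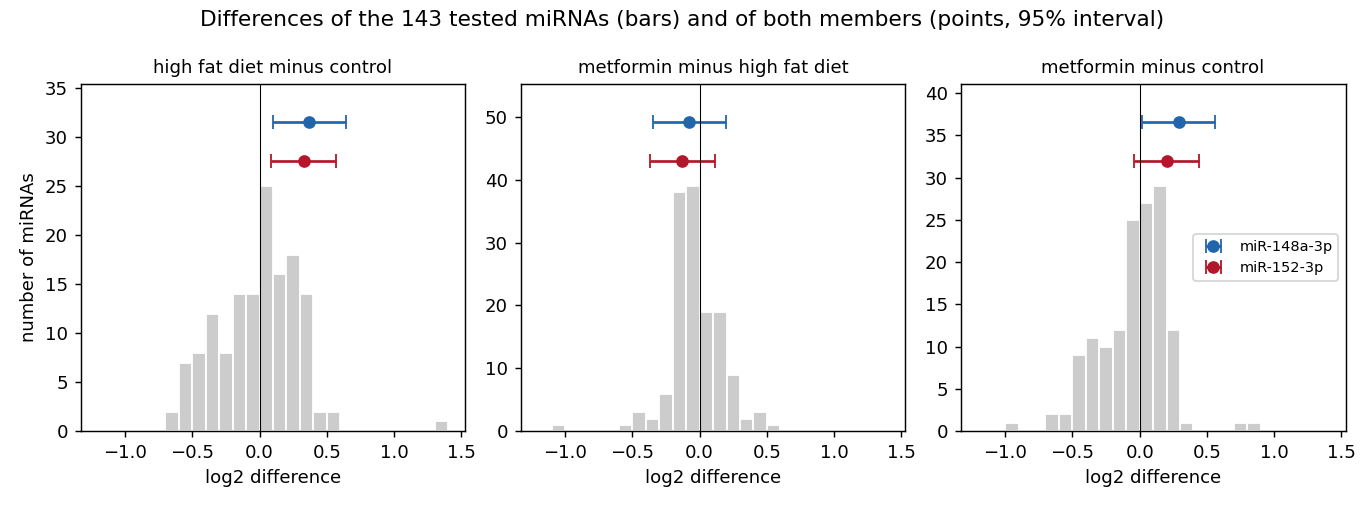
Log2 differences (horizontal axis) of the 143 tested miRNAs as a histogram (vertical axis, number of miRNAs) for high fat diet minus control, metformin minus high fat diet, and metformin minus control. Points with 95% intervals mark miR-148a-3p and miR-152-3p. Both lie in the upper part of the first histogram, at 0.37 and 0.33, and below 0 in the second.

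Both detected members were read by a second probe as well, and its differences had the same signs. For the dimmer probe of miR-148a-3p, kept spots had a median intensity of 172, 145 and 158 with metformin, 151, 194 and 225 on high fat diet, and 80.2, 125 and 144 in controls. High fat diet minus control was 0.38 by that probe, metformin minus high fat diet -0.07 and metformin minus control 0.31. The dimmer probe of miR-152-3p gave 0.31, -0.16 and 0.15 for the same 3 differences. Both probes of a miRNA were hybridised with the same RNA, so they repeat the reading and not the experiment.

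miR-148b-3p could not be compared between groups. The kept spots of its brighter probe had a median intensity of 6.30, 7.45 and 7.31 with metformin, 7.995, 10.1 and 8.64 on high fat diet, and 5.05, 7.80 and 8.04 in controls. These intensities were not scaled between arrays, so their order between groups is not read as a difference. All 9 are what was left after background subtraction, and they were above 0. At most 6 of 15 spots on an array, on metformin 3, lay well above background, and on the control arrays 0 did. The other probe gave 0 spots well above background on all 9 arrays, with medians of -1.21 to 1.86. The scaled level of both probes was at the floor on every array, which was 0.0406 of the 75th percentile, so no fold is given. The scanner software's own call per miRNA, which uses all spots, had it detected on 3 arrays, high fat diet 2, metformin 2 and metformin 3. In the authors' deposited table it stood at -1.07 on metformin 2, -1.38 on metformin 3 and -0.96 on high fat diet 2 (log2), and between -5.67 and -4.03 on the other 6 arrays, where the software had not detected it.

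The other arms of the 3 precursors, miR-148a-5p, miR-148b-5p and miR-152-5p, come from the opposite side of each hairpin and usually accumulate less. All 3 were on the array, and each was detected on 0 of 9 arrays. Medians of their kept spots lay between -3.18 and 3.82 in intensity. A level near background limits what the array can show and is not evidence that the RNA is absent.

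The 2 detected members followed each other across arrays. The Pearson correlation of their log2 levels was 0.919 over 9 arrays (Spearman's rho 0.967), and that of their deviations from the group means was 0.819. The 2 miRNAs share RNA, scaling and strip removal on each array, and the median correlation of miR-148a-3p with the other 142 miRNAs was 0.323. The log2 level of miR-152-3p minus that of miR-148a-3p ranged from -2.83 to -2.63 with metformin, from -2.71 to -2.64 on high fat diet and from -2.74 to -2.52 in controls, so the groups overlapped in this measure. Their mature sequences are printed above, and the array probes' own sequences were not used, so how far each probe also takes up the other member was not tested.

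By the same measure, the miRNAs whose levels were most like miR-148a-3p over 9 arrays were miR-194-5p (r = 0.929), miR-27b-3p (r = 0.924) and miR-152-3p. For miR-152-3p they were miR-148a-3p, miR-15b-5p (r = 0.918) and miR-27b-3p (r = 0.917). The high fat diet minus control difference was 0.22 for miR-194-5p (adjusted p in limma 0.216), 0.36 for miR-15b-5p (adjusted p in limma 0.104) and 0.19 for miR-27b-3p (adjusted p in limma 0.183), and none passed the test. With all spots, the order changed. miR-152-3p then came first for miR-148a-3p with r = 0.808, and miR-26b-5p came first for miR-152-3p with r = 0.879.

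Of the 7 miRNAs with the shifted seed, only miR-130a-3p, printed above, was detected on enough arrays to be tested. It averaged 0.47 with metformin, 0.48 on high fat diet and 0.36 in controls on the log2 scale. High fat diet minus control was 0.12 (95% interval -0.10 to 0.34, adjusted p in limma 0.398). It was looked at for its sequence and after its values were at hand.

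Among 16 other miRNAs known to act on the LDL receptor or on the handling of cholesterol and lipoproteins, 8 were tested. On high fat diet against control 2 of the 8 rose and 0 fell, where 4.20% of all miRNAs rose and 9.79% fell. Of the 8 differences 7 were positive, beside 78 of 143 over all miRNAs, and the median was 0.18 beside 0.03. miR-34a-5p, which represses the deacetylase SIRT1, averaged -0.55 on high fat diet and -1.92 in controls (difference 1.37, adjusted p in limma 0.000265). miR-185-5p, known to repress the LDL receptor and DNA methyltransferase 1, averaged -2.87 on high fat diet and -3.40 in controls (difference 0.53, adjusted p in limma 0.00827). miR-27a-3p, also known to act on the LDL receptor, differed by 0.17 (adjusted p in limma 0.239). With all spots, 1 of the 8, miR-34a-5p, was called (difference 0.84, adjusted p in limma 0.0464), and miR-185-5p was not (0.42, adjusted p in limma 0.146). In that reading 2 of the 8 differences were positive, beside 37 of 139 over all miRNAs, and the median was -0.12 beside -0.22.

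With metformin against high fat diet, 0 of these 8 were called, beside 1.40% of all miRNAs, and their median was -0.16 beside -0.06. With all spots the median turned to 0.06 beside 0.16, with 6 of the 8 differences positive in place of 2. miR-34a-5p averaged -1.12 with metformin and -0.55 on high fat diet (difference -0.56, adjusted p in limma 0.126). Against control, miR-34a-5p was the only one of the 8 called with metformin, at a difference of 0.80 (adjusted p in limma 0.0143), where 0.699% of all miRNAs were called higher, and the median was 0.08 beside -0.00. With all spots its difference was 0.63 (adjusted p in limma 0.203), 0 of the 8 were called and the median turned to -0.04 beside 0.02.

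Of 8 other miRNAs known to act on DNA methyltransferases, 7 were tested, and on high fat diet against control 2 rose and 0 fell, beside 4.20% and 9.79% of all miRNAs. They were miR-185-5p, which both lists hold, and miR-342-3p, known to repress DNA methyltransferase 1, with a difference of 0.39 (adjusted p in limma 0.0174). miR-29a-3p and miR-29b-3p, which repress the de novo methyltransferases, differed by 0.22 and 0.25 (adjusted p in limma 0.139 and 0.173). All 7 differences were positive, beside 78 of 143 over all miRNAs, with a median of 0.25 beside 0.03. With all spots 0 of the 7 were called, 4 of the 7 differences were positive, beside 37 of 139, and the median was 0.21 beside -0.22. With metformin against high fat diet 0 of 7 were called, beside 1.40% of all miRNAs, 0 of 7 differences were positive and the median was -0.18 beside -0.06. With all spots that median turned to 0.02 beside 0.16, with 4 of 7 differences positive. With metformin against control 0 were called, beside 1.40%, and the median was 0.04 beside -0.00.

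Liver is a mixture of cells, and in a pool of whole tissue fewer cells of a type and less RNA per cell cannot be told apart. miR-122-5p, the defining miRNA of hepatocytes, was detected on all 9 arrays. Of 5 hepatocyte miRNAs listed, 4 were on the array. Summed over those detected, levels were 10577% to 11907% of the 75th percentile with metformin, 9684% to 10851% on high fat diet and 10306% to 11624% in controls, and 0 of the 4 were called between groups. A list of 6 stellate and mesenchymal miRNAs moved with the same comparison as the members. Its sum was 33.4% to 34.8% with metformin, 36.0% to 42.6% on high fat diet and 25.7% to 31.5% in controls. In this list 1 miRNA was detected on all 9 arrays. A miRNA not detected on an array added 0 to the sum there, so the sum also depends on detection, whereas levels of single miRNAs were floored. The high fat diet and control ranges of this list did not overlap, where 37.1% of single miRNAs did not. Of its 3 tested members 1, miR-199a-3p, was called on high fat diet against control (difference 0.31, adjusted p in limma 0.0301), where 4.20% of all miRNAs were called higher. With all spots its difference was 0.57 (adjusted p in limma 0.158) and 0 of the 3 were called. The other listed miRNAs miR-214-3p, miR-143-3p and miR-145a-5p were detected on no array. The part of this list in the difference of the family was not tested.

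The 6 leukocyte miRNAs summed to 30.4% to 33.2% with metformin, 33.2% to 39.9% on high fat diet and 20.6% to 39.2% in controls, and miR-142a-5p, miR-150-5p and miR-155-5p were detected on no array. The erythroid list summed to 26.0% to 30.3% with metformin, 53.1% to 69.5% on high fat diet and 33.7% to 91.5% in controls. In the leukocyte list and in the erythroid list alike, 1 miRNA was detected on all 9 arrays. A miRNA not detected on an array added 0 to the sum there, so these ranges also depend on detection. The metformin range of the erythroid list lay below both others. Among single miRNAs, 20.3% did not overlap between metformin and high fat diet, and 25.9% between metformin and control. miR-451a, the red cell miRNA that carries the erythroid list, differed with metformin from high fat diet by -1.01 (adjusted p in limma 0.158). The endothelial miR-126a-3p, which the DNA methyltransferase list also holds, lay at 269% to 328% with metformin, 313% to 319% on high fat diet and 262% to 293% in controls. That range on high fat diet lay above that in controls, as for the stellate list, where 37.1% of all miRNAs did not overlap. The difference of miR-126a-3p was 0.18 (adjusted p in limma 0.214). With all spots the difference turned to -0.42 (adjusted p in limma 0.518), and its part in the difference of the family was not tested either. Of 5 cholangiocyte miRNAs 0 were tested.

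**Figure D5:**
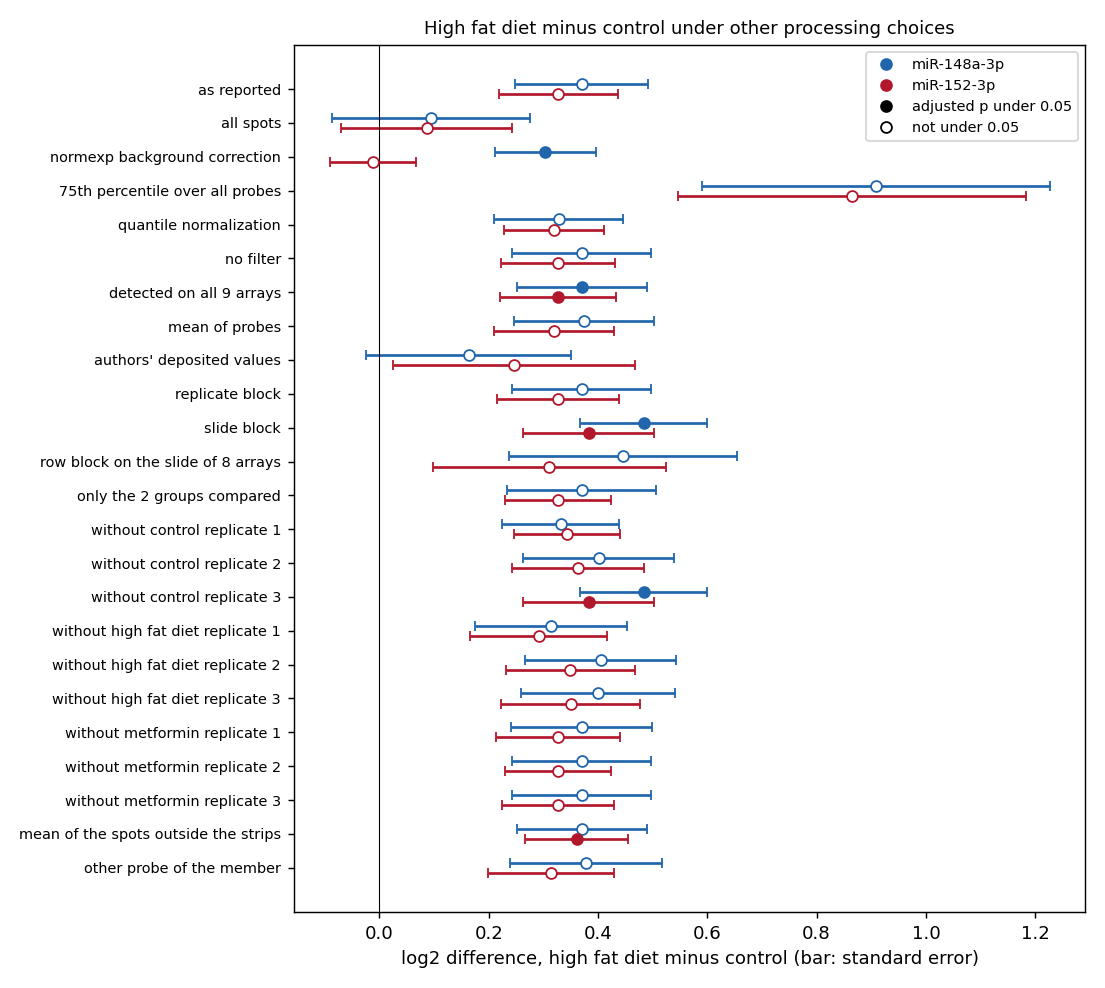
Log2 difference, high fat diet minus control (horizontal axis, bars are standard errors), of miR-148a-3p and miR-152-3p under each processing choice (vertical axis). The values reported are 0.37 and 0.33, using all spots gives 0.09 for both, normexp background correction gives 0.30 and -0.01, and scaling by the 75th percentile over all probes gives 0.91 and 0.86.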

How the data were processed

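The 9 scanner files give the intensity of each spot with background subtracted, per the file headers, made with Agilent Feature Extraction 11.5.1.1 (10.7 per the submitters' processing notes) and not scaled between arrays. The values the authors deposited are log2 totals of signal for each miRNA, shifted by a constant for each array, as a comparison with the scanner files showed. The constants were -2.35 to -0.71, and at most 6 miRNAs on an array departed by over 0.001. Their basis is not given in the sources.

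Each array has 56430 miRNA spots in 164 columns. Bright probes were those with an 80th percentile over their spots above 100, and their spots under 50% of that level counted as empty. Moving inward from each edge by 4 columns at a time, columns were dropped if 10% or more of these spots were empty, ending at the first successive steps that were not. Probes with under 3 kept spots on any array were dropped (425 of 4415). Scaled medians were floored at the 1st percentile of detected values. The brightest probe after flooring stood for a miRNA (for miR-148b-3p both probes were tied at the floor), and the 143 miRNAs detected on every array in 1 group or more were tested. The reading with all spots took the mean of spots without outlier marks and tested 139. limma 3.58.1 in R 4.3.3 (data.table, version 1.17.8) fitted 3 group means with a shared spread, two-sided, with Benjamini-Hochberg adjustment at 0.05. The fit was tested on simulated data, and the strip search on arrays without strips in which strips were planted. The planted strips held no signal, unlike some found here, so the search was not tested on partly empty strips.

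The members and all lists were chosen with earlier results of these data known, the strips included. Named miRNAs are the members, their other arms, the 3 most like each member by Pearson correlation, and of each list those called and the first 2 tested in list order. miR-130a-3p and the marker miRNAs named beside sums were added afterwards. Of the 1881 names on the array, 1608 matched RefSeq's mature miRNAs. No depth applies to arrays, and their number limits the precision. Alternatives were other background corrections, scalings, filters, probes, blocks and arrays left out. The normexp alternative used an offset of 50 and the median spot signal, since the mean signal was not among the columns at hand. The replicate numbers were not used to pair the arrays. Same-numbered arrays' deviations correlated at -0.24 to 0.43, with both signs, which does not settle whether the numbers pair them.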

Additional observations from a re-analysis of the deposited data

How the results depend on the processing

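Over 23 alternatives each, the high fat diet minus control difference of miR-148a-3p kept its direction in all and lay between 0.09 and 0.91, with adjusted p of 0.0214 to 0.765 in limma. That of miR-152-3p lay between -0.012 and 0.86, with adjusted p of 0.0357 to 0.959. Using only the 32 columns free of strips on all 9 arrays left the members' probes under 3 spots and gave no value for them in that reading. The planned results of miR-148b-3p were not run under any alternative, because its level was at the floor on every array. Dim signal limits miR-148b-3p and the other arms, and the number of pools limits the rest.

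For high fat diet minus control, normexp gave 0.30 for miR-148a-3p (adjusted p 0.0347) and turned miR-152-3p to -0.012 (adjusted p 0.959), while the median of all miRNAs moved to -0.13. Testing only miRNAs detected on all 9 arrays gave 0.37 and 0.33 with adjusted p of 0.0490, from fewer tests. Slide as a block, which drops the control array alone on its slide, gave 0.48 (adjusted p 0.0227) and 0.38 (adjusted p 0.0484). The mean of the kept spots, chosen after seeing the data, gave 0.36 for miR-152-3p (adjusted p 0.0357). The 75th percentile over all probes gave 0.91 and 0.86, with a median of 0.56 over all miRNAs. The authors' deposited values gave smaller differences, 0.16 (adjusted p in limma 0.763) and 0.25 (adjusted p in limma 0.757), with a median of -0.04. Row of the slide as a block, fitted without control 3, gave 0.44 (adjusted p 0.261) and 0.31 (adjusted p 0.366). High fat diet and control shared no row, so these values rest on metformin 1 in row 1 and metformin 2 and 3 in row 2. They are not differences within a row.

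For metformin minus high fat diet, the sign turned with all spots (0.017 and 0.077) and with the 75th percentile over all probes (0.19 and 0.14, with a median of 0.21 over all miRNAs), and quantile normalization gave 0.0021 for miR-152-3p. For metformin minus control, the 75th percentile over all probes gave 1.102 and 1.01 (adjusted p 0.0126 for both, median of all miRNAs 0.80), normexp gave -0.042 for miR-152-3p, and the authors' deposited values gave -0.054 for miR-148a-3p. Apart from the changed tests and dropped samples named, the cause was not tested.

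Leaving out 1 array at a time, high fat diet minus control ranged from 0.31 to 0.48 for miR-148a-3p and from 0.29 to 0.38 for miR-152-3p. Metformin minus high fat diet ranged from -0.11 to -0.02 and from -0.19 to -0.04, and metformin minus control from 0.27 to 0.41 and from 0.13 to 0.29. The counts of miRNAs called ranged from 6 to 40, from 0 to 3 and from 1 to 8 for the same 3 comparisons, against 20, 2 and 2 with all arrays. The lowest count for high fat diet minus control came without high fat diet 1 and the highest without control 3.

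The counts of miRNAs called for high fat diet minus control, metformin minus high fat diet and metformin minus control were 9, 0 and 0 with all spots (32, 15 and 15 at an unadjusted p under 0.05) and 1, 0 and 98 with the 75th percentile over all probes. They were 0, 0 and 0 with no filter on dim miRNAs, 0, 1 and 1 with the authors' deposited values, 39, 1 and 7 with slide as a block, and 0, 0 and 5 with row as a block. The middle count was also 0 with normexp, quantile normalization, the mean of probes and the same columns on all arrays. The last count was 0 with normexp and the same columns on all arrays. The first was 12 when only the 2 groups were fitted. Where limma called 0 under any of these settings, 7 to 45 miRNAs had an unadjusted p under 0.05. With the replicate block, whose numbers were not shown to pair the arrays, the counts were 22, 0 and 3. The members' high fat diet differences were then 0.37 and 0.33 with adjusted p of 0.0833 in limma, and no member's call changed.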
